A study of Mus musculus with 12 samples.

Results

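MHC class II antigen presentation was examined through 8 genes chosen by symbol: the class II chains H2-Aa, H2-Ab1 and H2-Eb1, the peptide exchange chains H2-DMa and H2-DMb1, the invariant chain Cd74, the transactivator Ciita and the protease cathepsin S, Ctss. A probe set named for the gene was found for 7 of the 8, with 1 probe set each, among 22206 probe sets; Cd74 was not analysed here. The tumors were neuroblastomas, a cancer of developing sympathetic nerve cells, that grew in inbred A/J mice after inoculation of murine tumor cells. The 4 groups of 3 arrays each were control tumors with no treatment and tumors labelled as treated with high intensity focused ultrasound (HIFU) at 24, 48 and 72 h, in which focused sound breaks up tissue mechanically. The labels give no genetic change, no name for the inoculated cell line and no age of the mice. They do not say that tumors within a group are from different mice, so each p-value reflects array-to-array spread that may be partly technical. The times are taken here as hours since HIFU, which the label wording does not settle. The comparisons ask whether each time differed from untreated tumors, and whether the times differed from each other.

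Class II molecules present peptides from engulfed or endosomal protein to CD4 T cells. An alpha and a beta chain assemble with the invariant chain, cathepsin S trims the invariant chain in the endosome, and the DM heterodimer exchanges the remaining fragment for antigenic peptide. Dendritic cells, macrophages and B cells are the usual carriers; in many other cells interferon-gamma, acting in part through Irf1, can switch on Ciita, which has no DNA-binding domain of its own and works through the RFX, CREB and NF-Y factors bound at the X and Y boxes of class II promoters.

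Promoter stretches are shown for the chains that lay below all controls at 24 h and for which a window was given, since the shared X and Y boxes are the elements through which Ciita acts. They come from RefSeq windows of 250 bases before to 50 bases after each annotated start, build GRCm38.p6 of strain C57BL/6J, whose class II haplotype is not that of A/J. A window was found for 5 of the 8 genes. The capitals mark the X box letters CTNGNAAC and then the Y box letters TGATTGG, each written 5′ to 3′ on the strand of the gene.
H2-Aa, chr17:34287852-34287922, minus strand: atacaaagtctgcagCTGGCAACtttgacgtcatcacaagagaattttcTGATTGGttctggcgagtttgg
H2-Eb1, chr17:34305758-34305827, plus strand: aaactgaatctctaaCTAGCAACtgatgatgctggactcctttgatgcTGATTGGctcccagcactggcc
H2-DMb1, chr17:34153079-34153149, plus strand: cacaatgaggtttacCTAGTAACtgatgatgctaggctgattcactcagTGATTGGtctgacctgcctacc
In all 3 the X box letters came first, with 26, 25 and 26 bases between them and the Y box letters. For Ctss the capitals mark an interferon-stimulated response element, searched as GAAA, any 2 bases and GAAA.
Ctss, chr3:95526750-95526789, plus strand: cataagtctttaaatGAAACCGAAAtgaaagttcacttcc

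On both strands, 13.2% of all 32851 promoter windows held the X box letters, 7.82% the Y box letters and 3.44% the response element; none of these matches overlapped another in the members' windows. The X box letters followed by the Y box letters on the gene's strand, 15 to 40 bases apart, were found in 12 windows (0.0365%). Those 12 included H2-Aa, H2-Eb1, H2-DMb1 and H2-Ob. The letters were set after the class II windows had been read, so this low share describes the search and tests nothing. In neither of the 2 windows of H2-DMa were any of the 3 motifs found.

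**Figure D1:**
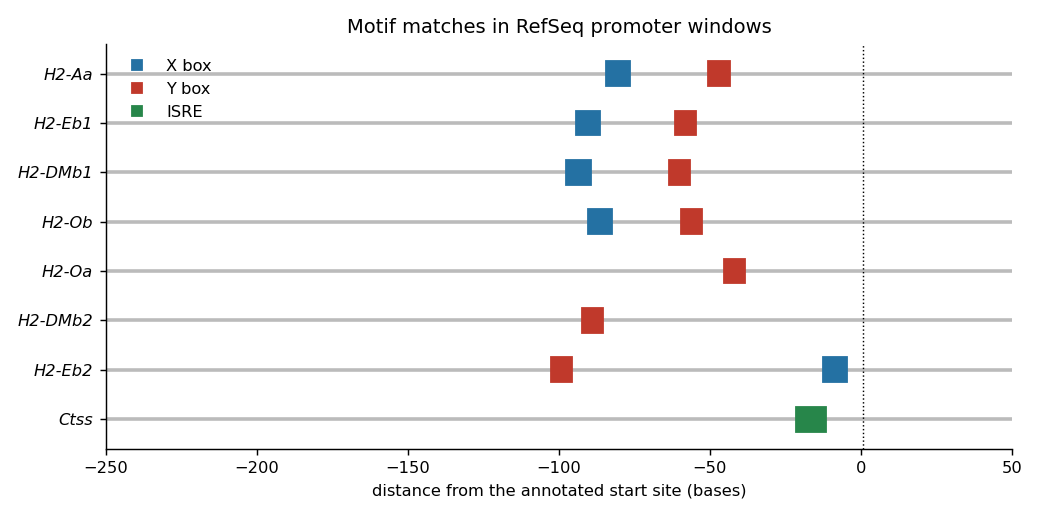
Matches to the X box (blue), Y box (red) and interferon-stimulated response element (green) in RefSeq promoter windows of class II genes and Ctss; the x axis gives the distance from the annotated start in bases. In H2-Aa, H2-Eb1, H2-DMb1 and H2-Ob an X box lies 23 to 26 bases before a Y box, H2-Oa and H2-DMb2 hold the Y box letters alone, and in H2-Eb2 the Y box letters come first.

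The deposited values are log2 signals per probe set, with array medians between 5.43 and 5.68; a log2 difference of 1 is a doubling. Signals of different probe sets are not ranked in level, since probes differ in response. For the labelled tumor, 11 of 14 listed neuroblastoma genes were measured, and their mean log2 signals over the 12 arrays ran from 5.43 for Ddc and 6.35 for Mycn to 16.33 for Chgb, a chromaffin granule protein. The median of these genes on an array lay between 10.35 and 12.58. Tests are limma fits over all 22206 probe sets with Benjamini-Hochberg adjustment and a threshold of 0.05. No member passed that threshold in any of the 7 comparisons made, so the differences given here are values with their errors, not calls. Over all probe sets, the share that passed in either direction was 0.054% at 24 h, 0.0045% at 48 h, 0.00901% at 72 h and 0.018% for all HIFU tumors against control, and 0% between the times.

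The classical class II chains lay lower at 24 h than in untreated tumors and nearer to them at 72 h. H2-Aa, the alpha chain of the class II molecule I-A, had log2 signals of 11.55, 10.17 and 11.90 in the control tumors, 9.04, 7.57 and 9.03 at 24 h, 8.20, 10.30 and 9.54 at 48 h, and 9.98, 10.86 and 10.89 at 72 h. All 3 arrays at 24 h lay below all controls; at 48 h HIFU_48h replicate 2 reached into the control range, and at 72 h 2 of 3 arrays did. The group means were 11.21 ± 0.91 (SD, n = 3) in controls, 8.55 ± 0.85 at 24 h, 9.35 ± 1.06 at 48 h and 10.58 ± 0.52 at 72 h. The log2 difference from control was -2.66 ± 0.61 SE at 24 h, a 6.32-fold lower signal, with limma adjusted p = 0.213 and place 109 of 22206 by unadjusted p. It was -1.86 ± 0.61 SE at 48 h (limma adjusted p = 0.262) and -0.63 ± 0.61 SE at 72 h (limma adjusted p = 0.77). The 72 h difference was -1.15 without control replicate 2, -0.28 without control replicate 3 and -0.33 without HIFU_72h replicate 1.

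H2-Ab1, the beta chain that pairs with H2-Aa, had log2 signals of 10.48, 8.98 and 10.03 in controls, 8.66, 6.52 and 8.82 at 24 h, 7.53, 9.44 and 9.07 at 48 h, and 8.96, 10.26 and 10.37 at 72 h. Again the 24 h arrays lay below all controls; at 72 h replicate 1 lay just under the lowest control and the other arrays within the control range. The log2 difference was -1.83 ± 0.70 SE at 24 h (limma adjusted p = 0.439), -1.15 ± 0.70 SE at 48 h (limma adjusted p = 0.496) and 0.03 ± 0.70 SE at 72 h (limma adjusted p = 0.995). For the last of these the 95% interval ran from -1.49 to 1.56, so a difference of more than 2-fold in either direction is within it. Without HIFU_24h replicate 2 the 24 h difference of H2-Ab1 was -1.09, and without HIFU_48h replicate 1 the 48 h difference was -0.57.

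H2-Eb1, the beta chain of the other class II molecule, I-E, had log2 signals of 6.61, 5.93 and 6.86 in controls, 5.47, 5.01 and 5.80 at 24 h, 4.13, 5.86 and 5.17 at 48 h, and 5.55, 6.72 and 6.16 at 72 h. Here both the 24 h and the 48 h arrays lay below all controls, the nearest being 5.86 against a lowest control of 5.93. The log2 difference was -1.04 ± 0.45 SE at 24 h, -1.41 ± 0.45 SE at 48 h and -0.32 ± 0.45 SE at 72 h (limma adjusted p = 0.49, 0.256 and 0.856). The partner alpha chain, H2-Ea, was not analysed here.

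The DM chains, which load peptide in the endosome, also had their lowest group mean at 24 h. H2-DMb1 had log2 signals of 7.76, 6.96 and 7.53 in controls, 6.76, 4.96 and 6.51 at 24 h, 6.38, 7.13 and 6.94 at 48 h, and 6.70, 8.22 and 6.68 at 72 h. The 24 h arrays lay below all controls, and the highest value of all 12 arrays was in HIFU_72h replicate 2. The log2 difference was -1.34 ± 0.52 SE at 24 h, -0.60 ± 0.52 SE at 48 h and -0.22 ± 0.52 SE at 72 h (limma adjusted p = 0.446, 0.64 and 0.931). It was -0.78 at 24 h without HIFU_24h replicate 2 and -0.38 at 48 h without HIFU_48h replicate 1. H2-DMb2 is a close copy of H2-DMb1, and whether their probe sets tell them apart was not tested.

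H2-DMa had log2 signals of 4.97, 3.71 and 3.69 in controls, 3.74, 1.93 and 2.88 at 24 h, 3.10, 3.25 and 2.58 at 48 h, and 2.98, 3.71 and 3.65 at 72 h. At 48 h all 3 arrays lay below all controls, and at 24 h 2 of 3 did. The log2 difference was -1.27 ± 0.47 SE, -1.15 ± 0.47 SE and -0.68 ± 0.47 SE at 24, 48 and 72 h (limma adjusted p = 0.43, 0.333 and 0.638). Without HIFU_24h replicate 2 the 24 h difference was -0.81; without control replicate 1 the 48 and 72 h differences were -0.72 and -0.25, and without HIFU_72h replicate 1 the 72 h difference was -0.44. The group mean stood at percentile 36.4 of all probe sets in controls and at 7.07 and 9.22 at 24 and 48 h, where array signals carry little information on level.

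Ciita, the master regulator of the class II promoters, had group means close to that of the controls. Its log2 signals were 5.39, 4.54 and 4.20 in controls, 4.55, 4.12 and 4.65 at 24 h, 3.88, 5.41 and 4.95 at 48 h, and 4.32, 4.58 and 4.73 at 72 h. Every HIFU group overlapped the controls, and the group means lay between percentiles 39.2 and 43.6 of all probe sets. The log2 difference was -0.27 ± 0.40 SE at 24 h, 0.04 ± 0.40 SE at 48 h and -0.17 ± 0.40 SE at 72 h (limma adjusted p = 0.855, 0.976 and 0.931). Its sign at 48 h turned under quantile normalization (-0.09) and median centring (-0.03). At 24 h the 95% interval, -1.14 to 0.60, still holds a difference of 2-fold downward.

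Ctss, the protease that trims the invariant chain, varied most between arrays of a group. Its log2 signals were 13.84, 12.07 and 12.55 in controls, 12.74, 9.27 and 13.41 at 24 h, 11.14, 14.95 and 11.55 at 48 h, and 12.18, 16.26 and 12.85 at 72 h. The 48 h arrays reached both below and above the controls, and the SD was between 2.09 and 2.22 in the HIFU groups against 0.92 in controls. The log2 difference was -1.01 ± 1.33 SE at 24 h, -0.27 ± 1.33 SE at 48 h and 0.94 ± 1.33 SE at 72 h (limma adjusted p = 0.838, 0.948 and 0.859). Without HIFU_24h replicate 2 the 24 h difference was 0.26, and without HIFU_72h replicate 2 the 72 h difference was -0.30.

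**Figure D2:**
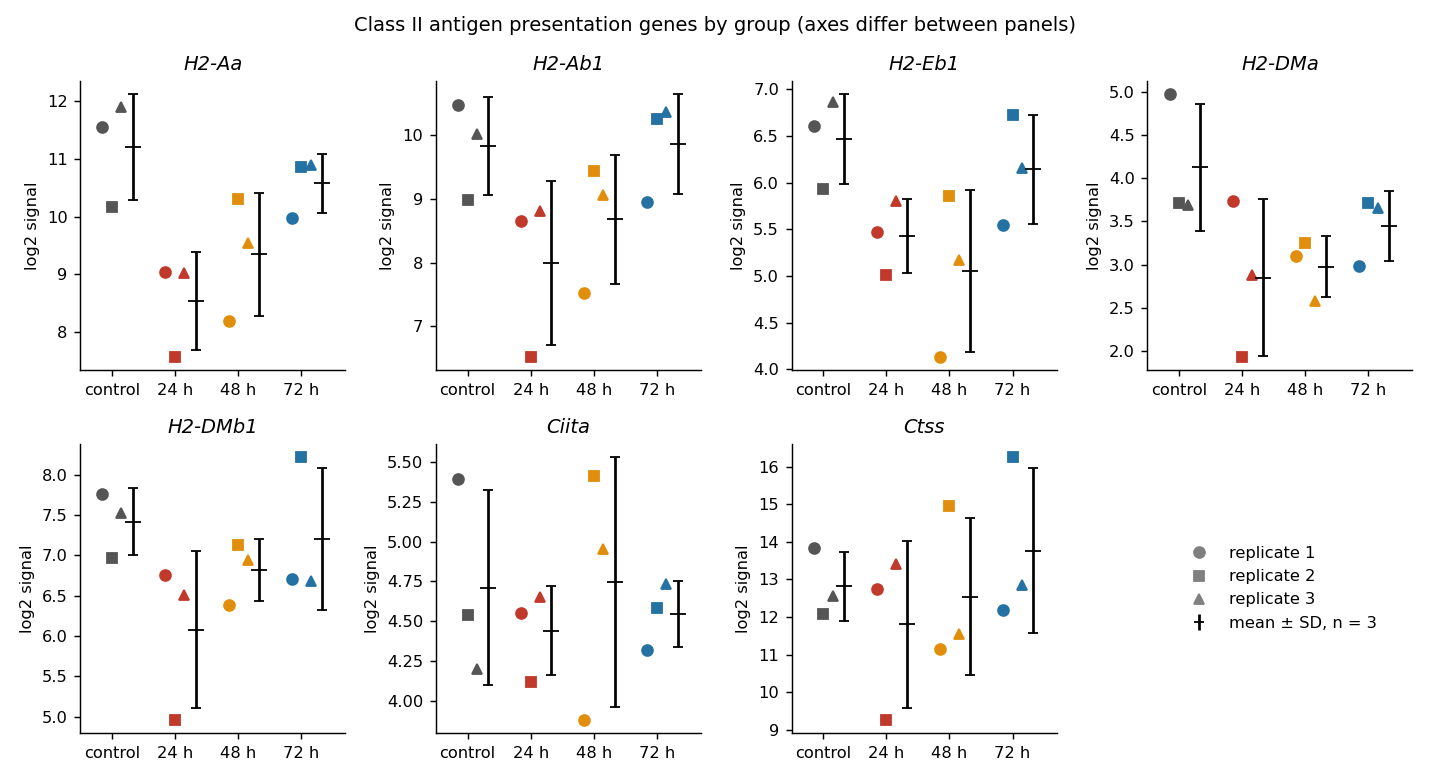
Log2 signal of the 7 measured class II antigen presentation genes in each array, by group, with replicate numbers as symbols and the mean ± SD (n = 3) beside them; each panel has its own y axis. The 24 h points of H2-Aa, H2-Ab1, H2-Eb1 and H2-DMb1 lie below all control points, while those of Ciita and Ctss overlap them.

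Across the 7 measured members, the median log2 difference from control was -1.27 at 24 h, -1.15 at 48 h and -0.22 at 72 h. The median over all probe sets was 0.00, 0.01 and -0.06. At 24 and 48 h the member median was the value of H2-DMa itself, whose group means stood at percentiles 7.07 and 9.22. Signals there carry little information on level. H2-DMa is also in the counts below at an unadjusted p under 0.05 at both times, and without overlap at 48 h. Without HIFU_24h replicate 2 the 24 h median was -0.81; leaving out HIFU_48h replicate 1 gave -0.57 at 48 h, and leaving out control replicate 1 gave -0.72, and the 72 h median lay between -0.61 (without HIFU_72h replicate 2) and -0.03 (without HIFU_72h replicate 1). At 24 h all 7 lay below the control mean (49.7% of all probe sets did), at 48 h 6 (48.8%) and at 72 h 5 (56.3%). Past the adjusted threshold, 0 of 7 were lower at each time by limma, against 0.0045% of all probe sets at 24 h and 0% at 48 and 72 h. At an unadjusted p under 0.05, 5 of 7 were lower at 24 h, where 5.86% of all probe sets were, 3 of 7 at 48 h (8.01% of all) and 0 of 7 at 72 h (5.39% of all). At 24 h 4 members had no array in the control range (7.68% of all probe sets lower in that way), at 48 h 2 (11.7%) and at 72 h 0 (10.1%). The members share arrays and lay high and low together, with pairwise Pearson correlations over the 12 arrays from 0.43 to 0.94 (median 0.71), so these counts do not add up independent evidence. The 3 comparisons also share the same control tumors.

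**Figure D3:**
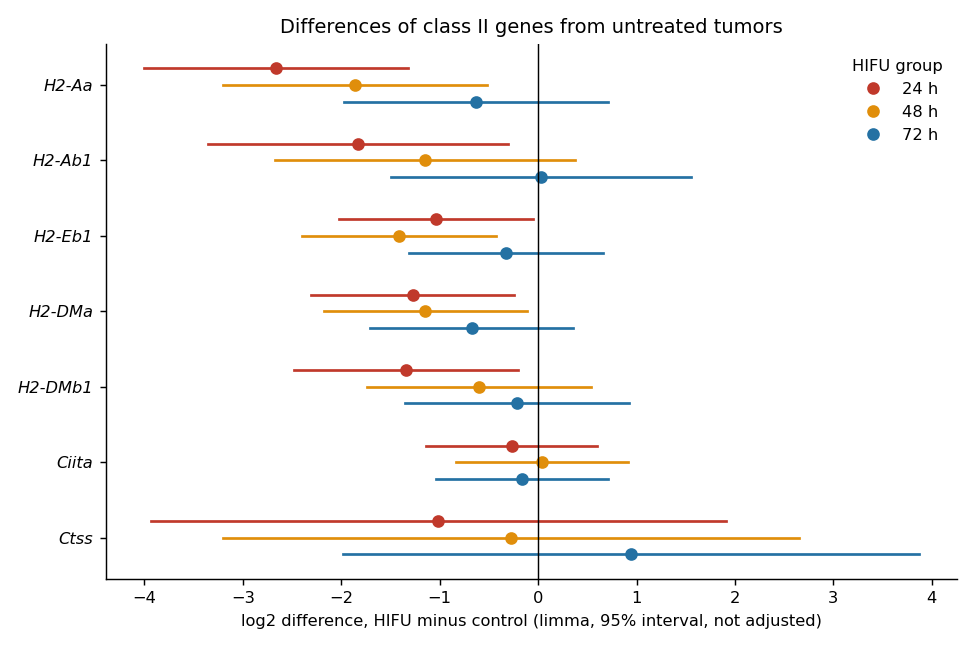
Log2 difference of each member from untreated tumors at 24 h (red), 48 h (orange) and 72 h (blue), HIFU minus control, as a point with its 95% interval from limma, not adjusted for the number of probe sets. For H2-Aa the interval runs from -4.0 to -1.32 at 24 h and spans 0 at 72 h; for Ciita and Ctss it spans 0 at all 3 times.

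Between the times, the chains were higher at 72 h than at 24 h. For H2-Aa the 72 h arrays all lay above the 24 h arrays, by 2.03 ± 0.61 SE on average (limma adjusted p = 0.807), and for H2-Ab1 the log2 difference was 1.86 ± 0.70 SE (limma adjusted p = 0.843), also without overlap. All 7 members had a positive 72 h minus 24 h difference (54.9% of all probe sets had one below 0), with a median of 1.12, or 0.57 without HIFU_24h replicate 2 and 0.61 without HIFU_72h replicate 2; 0 passed the adjusted threshold (0% of all probe sets), 2 had an unadjusted p under 0.05 (3.22% of all probe sets, higher) and 2 did not overlap (4.53%). From 24 to 48 h 6 of 7 differences were positive, with a median of 0.68, and 0 had an unadjusted p under 0.05 (limma); of all probe sets, 49.8% lay below 0, and 1.85% were higher and 2.04% lower at that p. Without HIFU_24h replicate 2 that median was -0.06, and without HIFU_48h replicate 2 it was -0.01. From 48 to 72 h the median was 1.09, but 0.34, 0.53 and 0.72 without HIFU_72h replicate 2, HIFU_48h replicate 1 and HIFU_48h replicate 3. Taking the 9 HIFU arrays together against control, all 7 differences were negative (50.6% of all probe sets). Their median was -0.93 (-0.61 without control replicate 1). By limma 0 of 7 passed (0% of all probe sets lower) and 3 had an unadjusted p under 0.05 (8.59% of all, lower). H2-Aa had the lowest of these p-values, lying -1.72 ± 0.50 SE from control (limma adjusted p = 0.176) and 6 of 9 HIFU arrays below all controls.

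In probe set signal, H2-Aa lay further below its control level after HIFU than its partner chain did. Whether the 2 probe sets respond alike to a change in RNA was not tested, so unlike changes of signal need not be unlike changes of RNA. The pairs were also chosen with earlier results of these data known. The within-array log2 difference H2-Aa minus H2-Ab1, set to 0 at the control mean, ran from -0.31 to 0.49 in controls, from -1.17 to -0.33 at 24 h, from -0.91 to -0.52 at 48 h and from -0.86 to -0.36 at 72 h. All 9 HIFU arrays lay below all 3 controls, the nearest at -0.33 against a lowest control of -0.31. The mean over the HIFU arrays was -0.73 against control, with an exact two-sided permutation p of 0.00455, the smallest that 220 splits of the arrays can give, and 0.0227 after Benjamini-Hochberg adjustment over 5 pairs of members. Without control replicate 3 the value was -0.49 (exact permutation, adjusted p = 0.182). The adjusted p was 0.0909 without control replicate 1 or 2 and 0.0781 when arrays were exchanged only within a replicate number, in each case the smallest the design then allows for a lone pair. The other 4 pairs did not pass by the exact permutation test. Against H2-Ab1 they were 0.06 for H2-Eb1 (adjusted p = 0.923), 0.85 for Ciita and 0.87 for Ctss (adjusted p = 0.492 for both). H2-DMa against H2-DMb1 was -0.31 (exact permutation, adjusted p = 0.494).

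The arrays with the lowest class II signals also had the lowest leukocyte signals. In HIFU_24h replicate 2 and HIFU_48h replicate 1 all 7 members lay below every control, with member medians of -2.46 and -1.68 relative to the control mean. In the same arrays the median of the 6 leukocyte genes, among them Ptprc (CD45), Laptm5 and Cd53, was -2.19 and -1.89; in the other HIFU arrays it lay between -0.62 and 3.69, and in controls between -0.83 and 0.98. In bulk tumor RNA, fewer cells of a type and less RNA per cell cannot be told apart, and the part of leukocyte content in the class II differences was not tested. Macrophage genes (10 of 11 measured) lay between -0.57 and 0.48 in controls, between -1.38 and 1.13 at 24 h, between -0.83 and 1.94 at 48 h and between 0.50 and 3.09 at 72 h. At 24 h, HIFU_24h replicates 1 and 3 had macrophage medians of 0.91 and 1.13, above all controls, and class II member medians of -0.66 and -0.91, below all controls. Their leukocyte medians, 0.20 and 0.07, lay within the control range.

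Individual macrophage genes differed in sign at 24 h, with 5 of 10 below the control mean. The log2 difference from control was 3.21 for Mrc1, the mannose receptor, 2.41 for Lyz2, lysozyme, and -1.23 for C1qb, a complement chain (limma adjusted p = 0.381, 0.539 and 0.717). The lists of the other class II carriers differed little in their medians: at 24, 48 and 72 h the median log2 difference was 0.22, -0.06 and 0.17 for B cell genes (8 of 9 measured) and -0.02, 0.06 and -0.12 for the 9 dendritic cell genes, with 0 called (limma). On the array, the B cell median lay between 3.04 and 3.88 and the dendritic cell median between 3.68 and 4.87, where the lowest 25% of probe sets ended between 3.45 and 3.76; such signals do not show how many of these cells were present. Among dendritic cell genes at 24 h, Siglech and Ccr7 differed by 0.50 and 0.09 and Batf3 by -0.19, and of the B cell genes Blk, Cd79a and Pax5 had mean log2 signals of 4.52, 3.83 and 3.56. Itgax (CD11c), singled out after its values were seen, was the dendritic cell gene with the lowest adjusted p, with 5.50, 4.72 and 4.97 in controls and 3.51, 3.71 and 3.41 at 24 h, or -1.52 ± 0.24 SE on the log2 scale (limma adjusted p = 0.0853).

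Skeletal muscle, neutrophil, fibroblast and endothelial genes had higher medians in the HIFU groups, but 0 of them passed at any time (limma; lowest adjusted p = 0.0789, for a neutrophil gene at 72 h). At an unadjusted p under 0.05, 15, 15 and 18 of 18 muscle genes, 3, 5 and 10 of 10 neutrophil genes, 4, 6 and 7 of 8 measured fibroblast genes and 2, 2 and 2 of 8 endothelial genes were higher at 24, 48 and 72 h, where 3.98%, 5.3% and 5.85% of all probe sets were. The 18 muscle genes had medians between -1.45 and 2.20 in controls and between 2.02 and 5.82 in the 9 HIFU arrays, and the 10 neutrophil genes between -0.18 and 0.17 in controls and between 0.03 and 9.23 after HIFU. Fibroblast medians lay between -0.71 and 1.16 in controls and between 0.28 and 6.60 after HIFU, with median log2 differences of 2.82, 3.19 and 4.34 at 24, 48 and 72 h; those of endothelial genes were 1.06, 0.77 and 0.98. With the muscle median as a covariate, the median of the members was -2.24 at 24 h, -1.95 at 48 h and -1.09 at 72 h, and H2-Ab1 (-0.79) and Ctss (-1.26) had a negative difference at 72 h. No member passed in that fit (limma). Only control replicate 3, at 2.20, lay within the range of the HIFU arrays in muscle genes, so these values are largely extrapolated and do not measure the part of muscle RNA. The part of neutrophil, fibroblast and endothelial RNA in the differences was not tested.

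**Figure D4:**
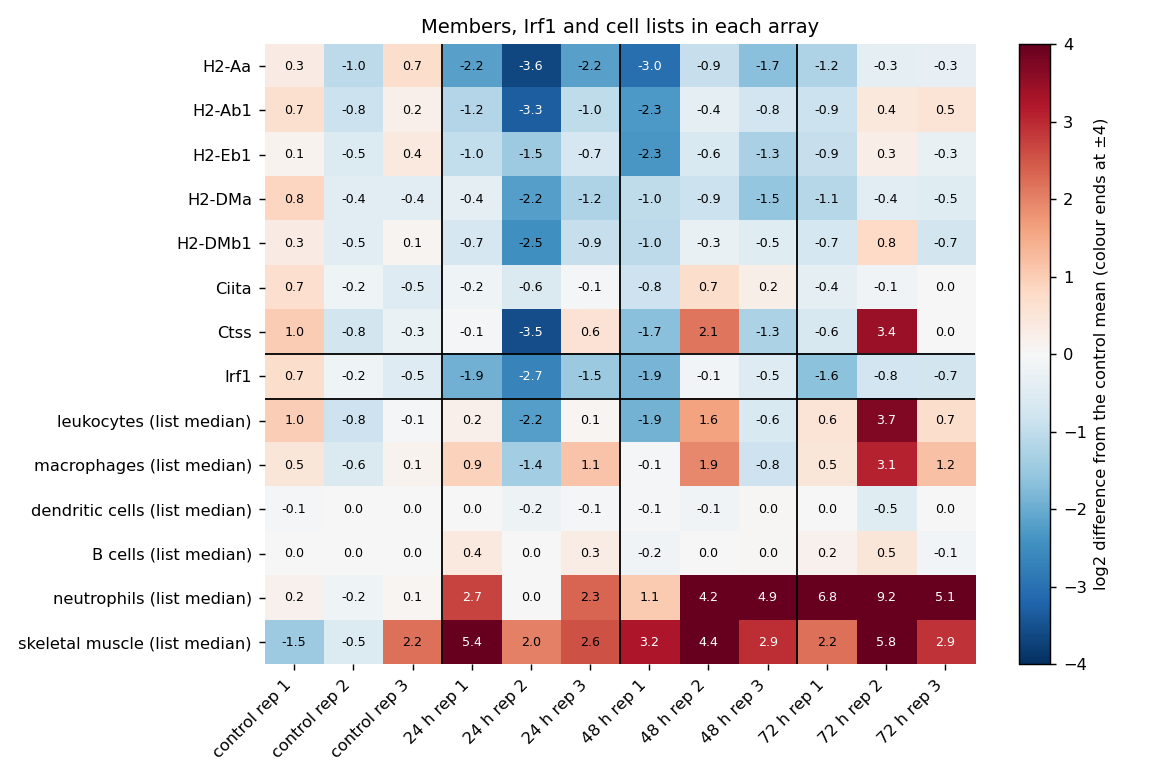
Log2 difference from the control mean in each of the 12 arrays for the 7 members, for Irf1 and for the median of 6 cell lists; blue is below and red above the control mean, and the colour ends at ±4. HIFU_24h replicate 2 and HIFU_48h replicate 1 are low in the members and in leukocyte genes, and HIFU_72h replicate 2 is high in Ctss and in leukocyte, macrophage, neutrophil and muscle genes.

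Over the 12 arrays, Ctss was high where macrophage and leukocyte genes were high. The relations given here were chosen after the values were seen. The permutations moved arrays freely across the 4 groups, so the p-values do not allow for differences between groups. Of 16 relations computed, Ctss against the macrophage median gave Pearson's r = 0.93 (permutation p = 7e-05, adjusted p = 0.00056) and Spearman's rho = 0.89 (permutation p = 0.00025, adjusted p = 0.002). Without the 2 arrays farthest out in macrophage genes, HIFU_24h replicate 2 and HIFU_72h replicate 2, r was 0.81, and after subtraction of the group means 0.97. Ctss against the leukocyte median gave r = 0.94 (permutation p = 1e-05, the smallest the resampling can give; adjusted p = 0.00016) and rho = 0.92 (permutation p = 6e-05, adjusted p = 0.00096), with r = 0.87 without the same 2 arrays and 0.97 within groups. For H2-Aa the macrophage relation was r = 0.43 (permutation p = 0.164, adjusted p = 0.239) and rho = 0.39 (permutation p = 0.213, adjusted p = 0.379), with 0.09 without those 2 arrays, though within groups r was 0.70. Whether these correlations of Ctss and H2-Aa differ was not tested.

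H2-Aa was high where Irf1 was high, the interferon-gamma-induced transcription factor that acts on a Ciita promoter. Pearson's r was 0.82 (permutation p = 0.00143, adjusted p = 0.00763) and Spearman's rho 0.71 (permutation p = 0.012, adjusted p = 0.064, which did not pass 0.05). Without control replicate 1 and HIFU_24h replicate 2, the 2 arrays farthest out in Irf1, r was 0.66, and within groups 0.74. Against Ciita itself, H2-Aa gave r = 0.46 (permutation p = 0.129, adjusted p = 0.229) and rho = 0.42 (permutation p = 0.174, adjusted p = 0.348), with r = 0.66 within groups. Against the leukocyte median, H2-Aa gave r = 0.64 (permutation p = 0.0238, adjusted p = 0.0952), and 0.77 within groups. Ctss against Irf1 gave r = 0.57 (permutation p = 0.0546, adjusted p = 0.146), and 0.74 within groups, as for H2-Aa. These relations too were chosen after the values were seen, so their p-values are descriptions and no test of a link. The arrays also share group, muscle and leukocyte content.

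**Figure D5:**
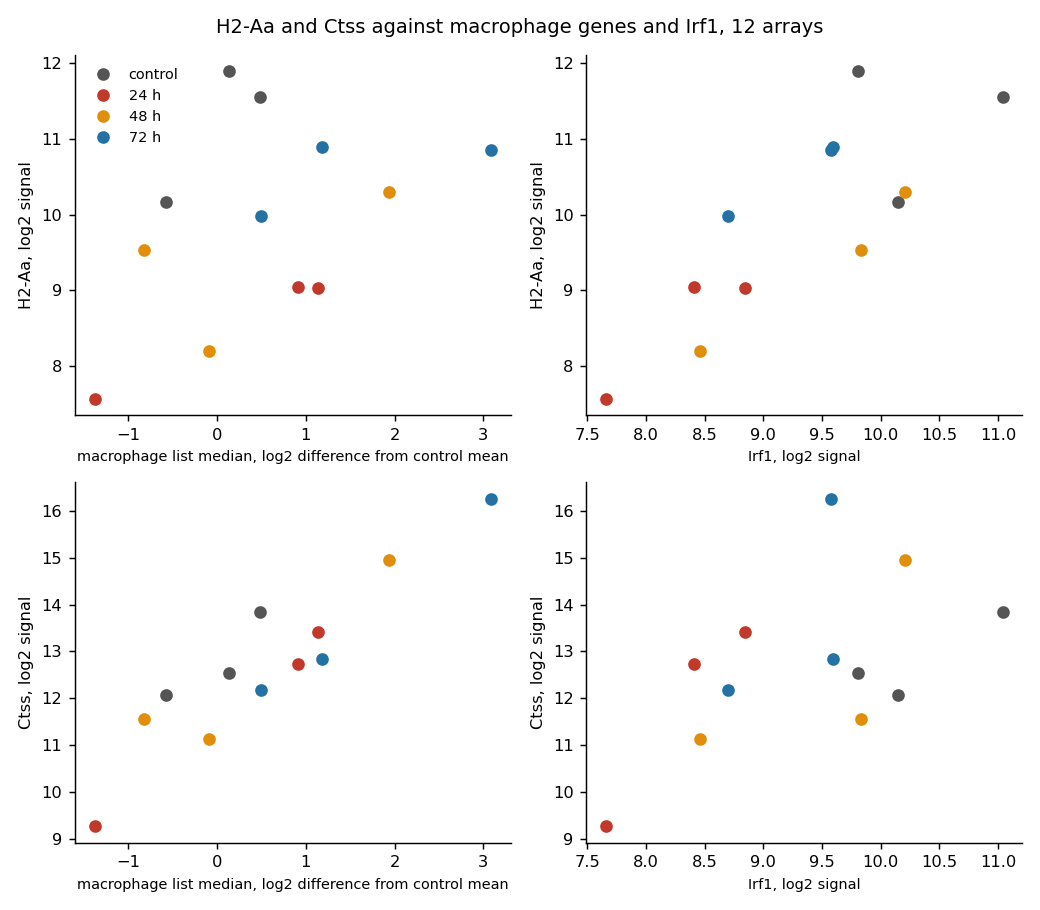
H2-Aa (top) and Ctss (bottom) log2 signals against the macrophage list median (left, log2 difference from the control mean) and the Irf1 log2 signal (right) in the 12 arrays, coloured by group. Ctss lies higher along the macrophage axis (r = 0.93), while 2 of the 24 h arrays lie to the right of the controls on that axis and below them in H2-Aa; H2-Aa lies higher along the Irf1 axis (r = 0.82).

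On the routes that lead to Ciita, 0 of 12 measured genes passed at any time (limma), and at an unadjusted p under 0.05, 2, 3 and 2 were lower and 1, 0 and 2 higher at 24, 48 and 72 h. Of all probe sets, 5.86%, 8.01% and 5.39% were lower and 3.98%, 5.3% and 5.85% higher at that p. Irf1 had log2 signals of 11.04, 10.15 and 9.81 in controls, 8.41, 7.66 and 8.84 at 24 h, 8.46, 10.21 and 9.83 at 48 h, and 8.70, 9.58 and 9.59 at 72 h. Its arrays at 24 h and at 72 h lay below all controls, as did 7.68% and 10.1% of all probe sets. The log2 differences were -2.03 ± 0.50 SE and -1.04 ± 0.50 SE (limma adjusted p = 0.254 and 0.463). Socs1, a feedback inhibitor of interferon signaling, lay between 4.33 and 4.43 in controls and between 3.48 and 3.90 in the 9 HIFU arrays, without overlap, as did 1.65% of all probe sets. Its log2 difference over all HIFU tumors was -0.74 ± 0.15 SE (limma adjusted p = 0.125). The HIFU signals of Socs1 lay near the end of the lowest 25% of probe sets, between 3.45 and 3.76. Signals near there carry little information on level, which limits this difference. Irf2, another interferon regulatory factor, differed by -0.82 ± 0.23 SE at 48 h and Irf8, a myeloid and B cell factor, by 0.60 ± 0.31 SE (limma adjusted p = 0.224 and 0.422). The cytokine itself, Ifng, outside the naming rule, had group means of 4.84 in controls and 4.43, 4.10 and 4.66 at 24, 48 and 72 h.

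Of the 7 factors that bind class II promoters, 0 passed at any time (limma), 7, 6 and 5 lay below the control mean at 24, 48 and 72 h, and the median log2 difference was -0.38, -0.46 and -0.23. At an unadjusted p under 0.05, 0, 2 and 1 were lower and 0 higher (limma), where 5.86%, 8.01% and 5.39% of all probe sets were lower; 49.7%, 48.8% and 56.3% of all lay below the control mean. The RFX subunits Rfx5 and Rfxank lay lowest at 48 h. Rfx5 had log2 signals of 8.78, 8.27 and 8.21 in controls and 6.24, 7.28 and 7.28 at 48 h. It differed by -1.49 ± 0.37 SE (limma adjusted p = 0.205), and Rfxank by -1.41 ± 0.42 SE (limma adjusted p = 0.233). Both lay below all controls at 48 h, as did 11.7% of all probe sets. The NF-Y subunits Nfya and Nfyc differed by -0.46 ± 0.23 SE and 0.00 ± 0.35 SE at that time (limma adjusted p = 0.408 and 0.998).

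Of the other class II chains, 4 were measured; 0 passed at any time (limma), also at an unadjusted p under 0.05, and the median log2 difference was -0.09, 0.11 and 0.18 at 24, 48 and 72 h. At 24 h H2-DMb2 differed by -0.36, the DO chains H2-Oa and H2-Ob, which restrain DM, by -0.30 and 0.57, and H2-Eb2 by 0.13 (limma adjusted p between 0.549 and 0.9). At 48 h H2-DMb2 differed by -0.96 ± 0.57 SE (limma adjusted p = 0.486). H2-Eb2 differed by 0.37 and lay above all controls, as did 10.3% of all probe sets. Over all arrays the H2-Eb2 signals ran from 2.72 to 3.79 and those of H2-Oa from 3.41 to 4.2. The lowest 25% of probe sets ended between 3.45 and 3.76, and signals near there carry little information on level. The differences of H2-Eb2 and H2-Oa, and the list medians that include them, are limited in the same way.

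Among 7 measured endosomal proteases and their partners, 0 passed (limma) and the median log2 difference was -0.34, 0.53 and 0.73 at 24, 48 and 72 h. At an unadjusted p under 0.05, 2, 1 and 0 were lower (5.86%, 8.01% and 5.39% of all probe sets) and 0, 0 and 2 higher (3.98%, 5.3% and 5.85%). Ifi30 is the thiol reductase GILT, which opens disulfide bonds of antigens and is induced by interferon-gamma. Its log2 signals were 15.46, 15.03 and 14.62 in controls and 13.90, 14.52 and 13.87 at 24 h. All 24 h arrays lay below all controls, as for 7.68% of all probe sets, with a difference of -0.94 ± 0.36 SE (limma adjusted p = 0.447). Cst3, the cysteine protease inhibitor cystatin C, differed by -0.75 at 24 h. In contrast, the cathepsins Ctsb and Ctsz differed by 1.58 and 0.73 at 72 h (limma adjusted p = 0.369 and 0.419).

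Of 6 costimulatory and turnover genes and of 7 CD4 T cell genes, 0 passed (limma); at an unadjusted p under 0.05, 2, 1 and 0 of each list were lower at 24, 48 and 72 h (5.86%, 8.01% and 5.39% of all probe sets) and 0 higher. Marchf1, the ubiquitin ligase that removes class II molecules from the surface, had log2 signals of 9.93, 9.0 and 5.88 in controls and 5.97, 5.07 and 6.36 at 24 h, so that control replicate 3 lay among the HIFU arrays, and it differed by -2.47 ± 0.97 SE (limma adjusted p = 0.451). At 24 h the costimulatory ligands Icosl, Cd80 and Cd86 differed by -0.68, 0.99 and -0.57. The T cell receptor subunit Cd3e had 6.14, 5.04 and 5.74 in controls and 4.55, 4.26 and 4.87 at 24 h. It lay below all controls, as did 7.68% of all probe sets, with a difference of -1.08 ± 0.41 SE (limma adjusted p = 0.439). Lag3, a receptor for class II, differed by -0.86 at 24 h (limma adjusted p = 0.438). Cd3d and Cd3g differed by -0.29 and -0.66 at 24 h. Cd4 itself, named after its values were seen, differed by 0.16, 0.16 and 0.51 at 24, 48 and 72 h (limma adjusted p = 0.892, 0.853 and 0.562). At 72 h it lay above all controls, as did 8.99% of all probe sets. The median of the 7 CD4 T cell genes was -0.29, -0.06 and -0.08 at 24, 48 and 72 h. On the array, the median signal of these 7 genes lay between 3.49 and 4.58, and Cd3g between 2.64 and 4.23. The lowest 25% of probe sets ended between 3.45 and 3.76, and such signals do not show how many of these cells were present.

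The genes whose pattern over the 12 arrays was most like the mean of H2-Aa, H2-Ab1 and H2-Eb1 were Gbp8, a guanylate-binding GTPase (r = 0.92), the lectin receptor Clec4a1 (0.91), Calhm6 (0.90), the peptide transporter Tap1 (0.90) and Gbp2 (0.90). Next came Slamf7 (0.88), Klra17 (0.88), Clec4a3 (0.88), AW112010 (0.87) and the adaptor Lcp2 (0.87). They were picked for the highest r, which is given as a description with no test. Gbp2, a GTPase induced by interferon-gamma, had group means of 9.04, 4.98, 7.21 and 8.29 in controls and at 24, 48 and 72 h, and Tap1 11.21, 8.27, 9.01 and 10.02. Both were picked for likeness to the class II chains, so their lowest means at 24 h are no separate observation.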

How the data were processed

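Tumor RNA was measured on 12 Clariom S mouse arrays (Affymetrix). The labels number the arrays of a group and do not say that each HIFU array is a separate tumor. The values the authors deposited are log2 signals per probe set. The authors used Transcriptome Analysis Console 4.0, per the submitters' processing notes; how signals were summarized, corrected and filtered, and the build, is not given in the sources used here. The base of the log was read from the range of the values. Arrays give no read depth, and having 3 in a group limits precision. The platform annotation paired 19572 probe sets with 1 symbol, 0 with several and 2634 with none; symbols were looked up by gene number in the RefSeq annotation of GRCm38.p6. Whether probes match the A/J alleles of these polymorphic genes was not tested.

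A mean per group was fitted to all 12 arrays with limma 3.58.1 in R 4.3.3 (lmFit, eBayes), two-sided, with Benjamini-Hochberg adjustment over 22206 probe sets. The fit was tested on simulated data. Within-array differences of member pairs were tested by exact permutation of 9 HIFU against 3 control arrays, and correlations with 100000 permutations, in Python 3.11.15 with SciPy 1.17.1. The pair of Cd74 with H2-Ab1 was not run. Named genes are the members, up to 4 per pathway list by the p of an F test over the 3 times, up to 3 per cell list by mean signal and the 10 most like the class II chains. Members, lists and tests were chosen with earlier results of these data known.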

Additional observations from a re-analysis of the deposited data

How the results depend on the processing

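No member passed the threshold under any of the 21 alternatives run (0 members in each of 146 refits by comparison, limma); at an unadjusted p under 0.05 the reported fit gave 5, 3 and 0 lower members at 24, 48 and 72 h. For H2-Aa at 24 h the difference lay between -3.51 and -1.93 over the alternatives with all arrays (adjusted p 0.071 to 0.587) and between -3.18 and -2.17 with 1 array left out (adjusted p 0.137 to 0.927). The number of probe sets called, used here as background, ranged more widely: with array weights it was 1118, 944, 1846 and 3787 at 24, 48, 72 h and over all HIFU tumors against 12, 1, 2 and 4 as reported, with 1 array left out it lay between 0 and 253, 0 and 312, 1 and 194, and 1 and 398, and with the replicate block it was 3, 0, 1 and 1. With the muscle covariate the medians of the members moved to -2.24, -1.95, -1.09 and -1.67 in these 4 comparisons, and at 72 h H2-Ab1 (-0.79) and Ctss (-1.26) turned; the cause was not tested. With array weights the same medians were smaller, at -0.78, -0.79, -0.09 and -0.56, and 0.56 for 72 h against 24 h. Other counts of probe sets also changed by over 1.5 times: at 72 h 4 without the lowest 25% of probe sets and 1 with quantile normalization or the muscle covariate; over all HIFU tumors 15 without the lowest 25%, 14 with median centring or trend and robust estimation and 1 with the covariate; at 48 h 6 with only the groups compared; 0 at 24 and 48 h with the covariate; for 72 h against 24 h 7 with array weights and 2 with only the groups compared, against 0, where leaving out 1 array gave 0 to 7; for 72 h against 48 h leaving out 1 array gave 0 to 2. H2-DMa has no value without the lowest 25% of probe sets, since it is among them, and the comparison of all HIFU tumors was not run with only the groups compared.

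Other signs that turned were of small differences: Ciita at 48 h (-0.093 with quantile normalization, -0.027 with median centring), H2-Ab1 at 72 h (-0.11 with median centring), and, with array weights, H2-DMa from 24 to 48 h (-0.27) and H2-DMb1 from 48 to 72 h (-0.0026). With 1 array left out, signs turned within these ranges. Against control, Ciita lay between -0.53 and 0.07 at 24 h, -0.30 and 0.47 at 48 h, -0.42 and 0.17 at 72 h and -0.39 and 0.21 over all HIFU tumors; Ctss between -1.81 and 0.26, -1.48 and 0.43, -0.30 and 1.74, and -0.53 and 0.40; at 72 h H2-Ab1 between -0.39 and 0.49 and H2-DMb1 between -0.73 and 0.043. From 24 to 48 h, H2-Ab1 lay between -0.06 and 1.25, H2-DMa between -0.33 and 0.57, H2-Eb1 between -0.78 and 0.088, Ciita between -0.025 and 0.74 and Ctss between -0.53 and 1.54, and the median of the members between -0.06 and 1.01. From 48 to 72 h the median lay between 0.34 and 1.49, Ciita between -0.64 and 0.13, Ctss between -0.032 and 2.42 and H2-DMb1 between -0.13 and 0.64; from 24 to 72 h Ciita lay between -0.057 and 0.22.

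The difference in change between H2-Aa and H2-Ab1 was -0.73 with the replicate block (exact permutation, adjusted p = 0.0781) and lay between -0.89 and -0.49 with 1 array left out (adjusted p 0.0303 to 0.182). That between H2-Eb1 and H2-Ab1 was -0.10 with quantile normalization and lay between -0.20 and 0.21 with 1 array left out. Arrays with the same replicate number did not deviate together (4 of 18 pairs correlated above 0.1, median -0.13), so the numbers were taken as names, and the block changed no call of a member or of another pair.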
